A study of Mus musculus with 12 samples.

Results

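The genes described are 10 transporters of bile acids, drugs and sterols in the hepatocyte membrane, chosen by name out of 24532 genes in the expression table. They were grouped by role into 4 uptake genes (*Slc10a1*, *Slco1b2*, *Slco1a1* and *Slco1a4*), 4 canalicular efflux genes (*Abcb11*, *Abcc2*, *Abcg5* and *Abcg8*) and 2 basolateral efflux genes (*Abcc3* and *Abcc4*). All 10 passed the filter on low counts and were among the 14038 genes tested.

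RNA-seq was performed on whole livers of 12 male C57BL/6 mice, 3 in each of 4 groups. WT mice carried *Ahr* fl/fl without *Cre* and were littermates of *Ahr* HKO mice, which carried *Ahr* fl/fl with *Alb-Cre*, so both genotypes held loxP sites around exon 2 of *Ahr*. Mice were 10 to 12 weeks old when feeding started, and received for 5 weeks either a control liquid diet (con) or the Lieber-DeCarli liquid diet (EtOH), in which ethanol was 5% of the volume and 36% of the calories. The albumin promoter drives Cre in hepatocytes, so other liver cells of *Ahr* HKO mice keep the gene. Only *Ahr* HKO mice carry Cre, so an effect of Cre itself and of the deletion cannot be told apart.

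Hepatocytes take bile acids, bilirubin and many drugs from portal blood through carriers of the sinusoidal membrane, and pump them with their conjugates into the bile canaliculus. Basolateral pumps carry such compounds back to blood, and are known as an overflow route when bile acids accumulate. AhR is a ligand-activated transcription factor that binds response elements with the core GCGTG, and several of these transporter genes are also known to respond to the receptors CAR, PXR and FXR and to NRF2.

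Libraries held 46306518 to 74336255 reads on genes. The smallest detectable level was taken as 3 counts, or 0.0425 to 0.0676 CPM, where CPM scales a count to the TMM-adjusted total of all tested genes in that library. This level covers counting error only. Reads of *Ahr* were counted over the whole gene, so they do not check the removal of exon 2. *Ahr* CPM was 20.1, 16.6 and 18.3 in WT con, 30.5, 20.8 and 23.5 in WT EtOH, 65.5, 41.3 and 63.3 in *Ahr* HKO con, and 41.8, 32.1 and 24.7 in *Ahr* HKO EtOH, so the *Ahr* HKO con livers stood above both WT groups. *Cyp1a2*, an AhR target, was 3.19-fold lower in *Ahr* HKO than in WT on the control diet (adjusted *P* = 0.0191) and 1.66-fold lower on the ethanol diet (adjusted *P* = 0.0457). Another AhR target, *Cyp1a1*, named after its values were seen, went the other way on the control diet. Its CPM was 0.349, 0.214 and 0.204 in WT con, 0.898, 0.444 and 0.827 in *Ahr* HKO con, 1.36, 1.02 and 1.66 in WT EtOH, and 1.03, 1.23 and 1.67 in *Ahr* HKO EtOH. On the control diet it was 2.82-fold higher in *Ahr* HKO (adjusted *P* = 0.0458), and on ethanol the log2 FC was -0.04 (adjusted *P* = 0.953). Every liver expressed the hepatocyte markers, whose summed CPM was 75800 to 119000 over the 12 livers, with none of the 8 measured at 0 in all of them. The WT con range (82300 to 92700) lay below that of *Ahr* HKO EtOH (106000 to 114000), and the other pairs of groups overlapped. Summed CPM of 9 cholangiocyte markers was 52.9 to 183 in 3 of the groups and 58.4 to 506 in *Ahr* HKO con.

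The genomic setting separates these genes into neighbours and singletons. In RefSeq on GRCm38.p6, the mouse build also called mm10, *Slco1b2* (chr6:141629452-141686646, plus strand), *Slco1a4* (chr6:141805438-141856284, minus strand) and *Slco1a1* (chr6:141907281-141946962, minus strand) lie side by side. The gap between *Slco1b2* and *Slco1a4* is 118791 bases, and that between *Slco1a4* and *Slco1a1* is 50996 bases. *Abcg5* (chr17:84658174-84683011, minus strand) and *Abcg8* (chr17:84676302-84700333, plus strand) overlap on opposite strands and share 82 exon bases in the GENCODE annotation. *Abcc4* (chr14:118482692-118707856, minus strand) has a pair of listed starts. The others are *Slc10a1* (chr12:80953185-80968705, minus strand), *Abcb11* (chr2:69238282-69342616, minus strand), *Abcc2* (chr19:43782308-43838332, plus strand) and *Abcc3* (chr11:94343295-94393017, minus strand).

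The sequences below stand upstream of genes on which the results turn. They are given 5′ to 3′ on the strand of the gene, from RefSeq on GRCm38.p6, and hold no exon base annotated in GENCODE. The first pair belongs to neighbours with opposite ethanol differences in WT, *Slco1a1* (minus strand, chr6:141946963-141947212) and *Slco1a4* (minus strand, chr6:141856285-141856470). The next is the 109-base gap between *Abcg5* and the nearer start of *Abcg8*, on the minus strand (chr17:84683012-84683120). The last pair precedes the first (minus strand, chr14:118706220-118706469) and the second (minus strand, chr14:118676932-118677181) listed start of *Abcc4*, and both lie in introns within the outer limits of the gene. Capitals mark the AhR response core, read here as CACGC because the core lies on the opposite strand.
Slco1a1: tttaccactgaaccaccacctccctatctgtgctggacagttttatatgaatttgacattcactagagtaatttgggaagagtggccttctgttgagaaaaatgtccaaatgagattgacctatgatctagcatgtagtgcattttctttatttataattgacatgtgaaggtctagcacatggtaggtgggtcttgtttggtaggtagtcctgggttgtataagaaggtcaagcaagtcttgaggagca
Slco1a4: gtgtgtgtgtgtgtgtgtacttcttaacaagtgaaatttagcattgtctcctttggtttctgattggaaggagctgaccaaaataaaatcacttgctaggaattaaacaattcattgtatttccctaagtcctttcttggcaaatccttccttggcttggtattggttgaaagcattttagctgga
Abcg5 to Abcg8: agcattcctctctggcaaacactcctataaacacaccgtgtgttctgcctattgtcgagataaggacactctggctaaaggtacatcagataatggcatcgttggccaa
Abcc4 first start: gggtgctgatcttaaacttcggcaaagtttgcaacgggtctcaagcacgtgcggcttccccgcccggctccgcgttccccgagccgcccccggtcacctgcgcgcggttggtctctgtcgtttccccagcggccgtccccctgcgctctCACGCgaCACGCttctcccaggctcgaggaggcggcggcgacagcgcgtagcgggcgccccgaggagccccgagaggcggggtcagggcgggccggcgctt
Abcc4 second start: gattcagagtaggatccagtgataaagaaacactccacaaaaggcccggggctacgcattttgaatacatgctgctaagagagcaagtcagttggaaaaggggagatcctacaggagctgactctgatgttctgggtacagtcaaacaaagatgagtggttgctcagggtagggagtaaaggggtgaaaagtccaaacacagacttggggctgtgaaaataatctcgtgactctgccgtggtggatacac

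Windows from 250 bases before to 50 bases after a start were searched on both strands for the AhR response core GCGTG and for the antioxidant response core TGACNNNGC. The RefSeq promoter table matched 9 of the 10 genes with 12 windows, and *Abcc3* was not matched. GCGTG was found in 3 of the 12 windows, those of *Abcb11*, of the first start of *Abcc4* and of the farther start of *Abcg8*, and in 32.4% of the 32851 windows of all genes. TGACNNNGC was found in 3 of the 12, both windows of *Abcc4* and that of *Abcc2*, and in 12.4% of all windows. The upstream stretch of the first *Abcc4* start was 72.0% G and C, against 40.4% for *Slco1a1* and 37.6% for *Slco1a4*. A match describes letters and no binding was measured.

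Levels between genes, and sums and ratios of genes within a liver, are given as FPKM, which the authors scaled to gene length. Differences of single genes between groups are given as CPM. In WT con the order was *Slc10a1* (391 ± 6.37 FPKM, SD, n = 3), *Slco1b2* (255 ± 19.3), *Abcb11* (96.1 ± 10), *Slco1a1* (82.0 ± 24.2), *Abcc2* (64.2 ± 11.2), *Abcg8* (35.0 ± 7.14), *Abcg5* (32.0 ± 2.94), *Abcc3* (24.9 ± 6.84), *Slco1a4* (7.53 ± 3.25) and *Abcc4* (0.327 ± 0.0563). The ranges over livers overlapped between *Abcb11* and *Slco1a1*, between *Slco1a1* and *Abcc2*, and among *Abcg8*, *Abcg5* and *Abcc3*. *Slc10a1* and *Slco1b2* together supplied 84.7 to 97.5% of the uptake FPKM in the 12 livers.

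**Figure D1:**
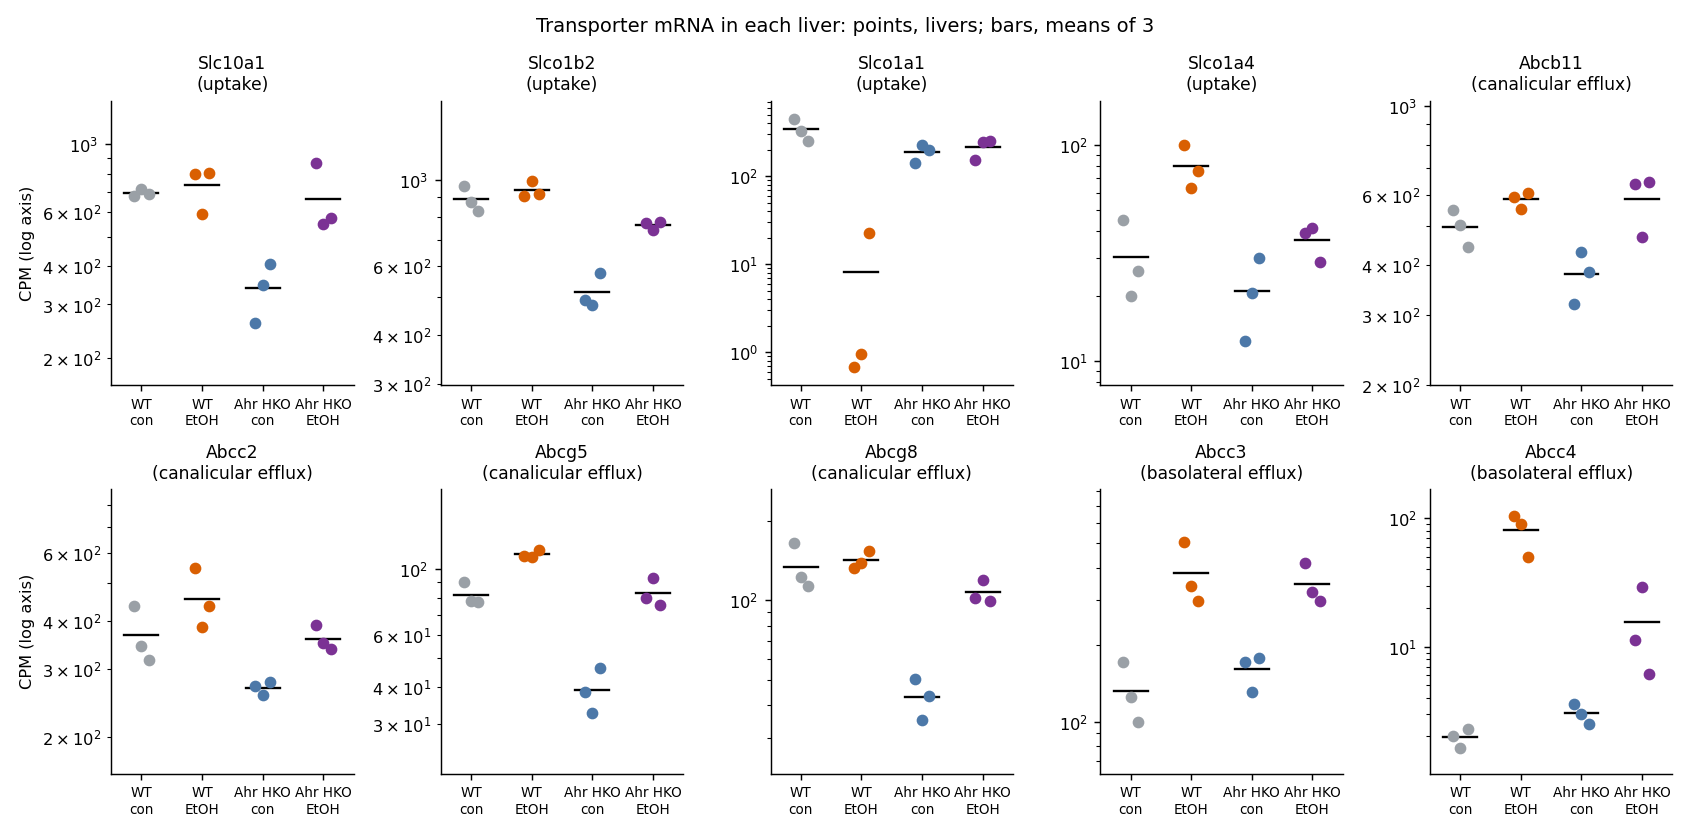
CPM of each transporter gene (log axis, with a separate range for each gene) in WT con, WT EtOH, *Ahr* HKO con and *Ahr* HKO EtOH livers; points are single livers and bars the mean of 3. *Slco1a1* is lowest in WT EtOH (0.68, 0.954 and 22.9 CPM), and *Abcc4* occupies 4 separate ranges, lowest in WT con and highest in WT EtOH.

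*Slc10a1* encodes the sodium-dependent carrier that takes up conjugated bile acids. Its CPM was 678, 713 and 686 in WT con, 802, 594 and 808 in WT EtOH, 262, 348 and 406 in *Ahr* HKO con, and 867, 548 and 573 in *Ahr* HKO EtOH. *Ahr* HKO con stood below all 9 other livers, and the other groups overlapped. On the control diet *Slc10a1* was 2.04-fold lower in *Ahr* HKO than in WT (log2 FC -1.03 ± 0.17, SE; adjusted *P* = 0.0053 by edgeR). Ethanol raised it 1.96-fold in *Ahr* HKO (log2 FC 0.97 ± 0.23, adjusted *P* = 0.0209), whereas the WT value was 0.09 ± 0.15 (adjusted *P* = 0.754). The rise in *Ahr* HKO was no longer called without con liver 1 or 2 (adjusted *P* = 0.0557 and 0.0568).

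*Slco1b2* encodes a sodium-independent carrier of bile acids, bilirubin and drugs such as statins. CPM was 961, 878 and 830 in WT con, 909, 994 and 918 in WT EtOH, 493, 477 and 576 in *Ahr* HKO con, and 774, 743 and 777 in *Ahr* HKO EtOH. The WT groups overlapped each other, *Ahr* HKO EtOH lay below both, and *Ahr* HKO con lay lowest. It was 1.73-fold lower in *Ahr* HKO on the control diet (log2 FC -0.79 ± 0.13, adjusted *P* = 0.0053) and rose 1.48-fold with ethanol in *Ahr* HKO (0.57 ± 0.12, adjusted *P* = 0.0137, and 0.0566 without EtOH liver 3).

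*Slco1a1* encodes an organic anion uptake carrier that is known for higher expression in male than in female mouse liver. Its CPM was 452, 332 and 251 in WT con, 0.68, 0.954 and 22.9 in WT EtOH, 142, 230 and 199 in *Ahr* HKO con, and 153, 244 and 254 in *Ahr* HKO EtOH. The WT EtOH values rest on 36, 60 and 1439 counts, all above the smallest detectable level. All 3 WT EtOH livers were below all 9 others, and liver 3 stood far above the other 2. The WT EtOH mean was 42.0-fold below WT con, yet the test did not pass (log2 FC -5.39 ± 1.34, adjusted *P* = 0.051). Without WT EtOH liver 3 it was -8.71 (adjusted *P* = 0.000461). The decrease also passed with DESeq2 (adjusted *P* = 0.000597), upper-quartile scaling (0.05 when rounded) and at least 10 counts in every library (0.0441). It passed too with all 12 libraries in 1 fit (0.012) and in all 3 limma fits. It did not pass without a filter on low counts or with the replicate number as a block. Among 6 fits leaving out a liver it passed only in that without WT EtOH liver 3 (adjusted *P* up to 0.126 in the rest). In *Ahr* HKO the diet value was 0.19 ± 0.25 (adjusted *P* = 0.587). On the control diet *Slco1a1* was 1.81-fold lower in *Ahr* HKO (log2 FC -0.86 ± 0.25, adjusted *P* = 0.0408), a call lost without WT con liver 1 or 2, or *Ahr* HKO con liver 1 or 3 (adjusted *P* 0.0741 to 0.117).

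*Slco1a4*, its neighbour, encodes a related carrier of organic anions and digoxin. CPM was 45.0, 20.1 and 26.2 in WT con, 100, 63.2 and 76.0 in WT EtOH, 12.4, 20.7 and 29.9 in *Ahr* HKO con, and 39.3, 41.2 and 28.6 in *Ahr* HKO EtOH. WT EtOH lay above all 9 other livers, which overlapped between groups. Ethanol raised *Slco1a4* 2.62-fold in WT (log2 FC 1.39 ± 0.31, adjusted *P* = 0.0355), a call that remained only without WT con liver 1 among the 6 fits leaving out a liver. The FPKM of *Slco1a1* was 9.23 to 15.9 times that of *Slco1a4* in WT con and 0.00651 to 0.29 times in WT EtOH. In *Ahr* HKO the ratio was 6.41 to 11 on the control diet and 3.75 to 8.56 on ethanol, so *Slco1a4* was the more abundant of these neighbours in the WT EtOH livers alone. Of all 100-base stretches in their transcripts, 0.614% of *Slco1a1* also occurred in *Slco1a4* and 0.624% of *Slco1a4* in *Slco1a5*.

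*Abcb11* encodes the bile salt export pump. CPM was 549, 503 and 444 in WT con, 593, 554 and 606 in WT EtOH, 320, 432 and 384 in *Ahr* HKO con, and 640, 469 and 645 in *Ahr* HKO EtOH. The *Ahr* HKO con livers were below all others, and WT EtOH was above WT con without overlap. Ethanol raised it 1.54-fold in *Ahr* HKO (log2 FC 0.63 ± 0.18, adjusted *P* = 0.0342), but the call was lost in 4 of 6 fits leaving out a liver, those without *Ahr* HKO con liver 1 or 3 or EtOH liver 1 or 3 (adjusted *P* 0.0658 to 0.112). *Abcb11* shares 136 exon bases with *Gm13613* on the other strand.

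*Abcc2* encodes the canalicular pump for bilirubin glucuronides and other conjugates. CPM was 437, 345 and 317 in WT con, 547, 385 and 436 in WT EtOH, 271, 257 and 278 in *Ahr* HKO con, and 390, 350 and 337 in *Ahr* HKO EtOH. *Ahr* HKO con was below all 9 other livers, whose groups overlapped. It was 1.36-fold lower in *Ahr* HKO on the control diet (log2 FC -0.45 ± 0.14, adjusted *P* = 0.0492) and rose 1.34-fold with ethanol in *Ahr* HKO (0.42 ± 0.11, adjusted *P* = 0.0265). The first call remained only without WT con liver 3, and the second only without *Ahr* HKO con liver 3, among 6 fits each.

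*Abcg5* and *Abcg8* are partners in a heterodimer that secretes cholesterol and plant sterols into bile. *Abcg5* CPM was 90.0, 77.9 and 77.4 in WT con, 111, 110 and 116 in WT EtOH, 38.4, 32.5 and 46.3 in *Ahr* HKO con, and 79.8, 93.3 and 75.5 in *Ahr* HKO EtOH. WT EtOH lay highest, WT con and *Ahr* HKO EtOH overlapped, and *Ahr* HKO con lay lowest. *Abcg8* CPM was 165, 123 and 113 in WT con, 133, 139 and 154 in WT EtOH, 50.1, 35.1 and 43.3 in *Ahr* HKO con, and 102, 120 and 99.6 in *Ahr* HKO EtOH. Again *Ahr* HKO con lay lowest, while WT con overlapped with both ethanol groups.

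On the control diet *Abcg5* was 2.09-fold lower (log2 FC -1.07 ± 0.15, adjusted *P* = 0.00282) and *Abcg8* 3.13-fold lower in *Ahr* HKO (-1.65 ± 0.19, adjusted *P* = 0.00167). With ethanol they rose 2.12-fold (1.09 ± 0.16, adjusted *P* = 0.0041) and 2.51-fold (1.33 ± 0.16, adjusted *P* = 0.00259) in *Ahr* HKO. In WT, ethanol raised *Abcg5* 1.37-fold (0.46 ± 0.10, adjusted *P* = 0.0296), a call that remained only without WT con liver 1, and *Abcg8* had 0.08 ± 0.15 (adjusted *P* = 0.774). The ratio of *Abcg5* to *Abcg8* FPKM was 0.819 to 1.01 in WT con and 1.12 to 1.56 in the other 9 livers. The 82 shared exon bases could carry reads of either gene, and the sources used here do not state whether the counting used strand.

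*Abcc3* encodes a basolateral pump for glucuronides and bile acids. CPM was 171, 125 and 99.9 in WT con, 509, 340 and 297 in WT EtOH, 172, 131 and 178 in *Ahr* HKO con, and 419, 324 and 297 in *Ahr* HKO EtOH. All 6 ethanol livers were above all 6 control livers, and the genotypes overlapped on each diet. Ethanol raised *Abcc3* 2.90-fold in WT (log2 FC 1.53 ± 0.26, adjusted *P* = 0.0168) and 2.16-fold in *Ahr* HKO (1.11 ± 0.18, adjusted *P* = 0.00602). The WT call was lost without WT con liver 2 or 3 (adjusted *P* = 0.0691 and 0.0577).

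*Abcc4* encodes a basolateral pump for bile acids and cyclic nucleotides, and was the least abundant of the 10 genes in both control groups. CPM was 2.03, 1.64 and 2.29 in WT con, 105, 90.5 and 49.6 in WT EtOH, 3.59, 2.97 and 2.52 in *Ahr* HKO con, and 11.3, 29.4 and 6.18 in *Ahr* HKO EtOH. No group overlapped another, in the order WT con, *Ahr* HKO con, *Ahr* HKO EtOH and WT EtOH. Ethanol raised *Abcc4* 41.1-fold in WT (log2 FC 5.36 ± 0.32, adjusted *P* = 0.000534) and 5.17-fold in *Ahr* HKO (2.37 ± 0.54, adjusted *P* = 0.0171). In *Ahr* HKO EtOH, liver 2 stood far above the other livers, and without *Ahr* HKO con liver 2 that call was lost (adjusted *P* = 0.0597).

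The first question of the design is what ethanol did in WT liver. Of the 10 transporters, 4 rose (*Abcc4*, *Abcc3*, *Slco1a4* and *Abcg5*) and none fell past the edgeR test. *Slco1a1* missed the threshold there and passed it in some of the other fits named above. Both basolateral pumps were among the 4 that rose, with 1 of 4 canalicular and 1 of 4 uptake genes. Over all tested genes 4.24% were called higher and 4.48% lower. The groups did not overlap for 6, against 32.9% of all genes, and *Slco1a1* and *Abcb11* were the 2 that did not overlap without being called. Leaving out WT con liver 2 or 3 left 1 member called, *Abcc4*, and leaving out WT EtOH liver 1 or 2 left 2, *Abcc4* and *Abcc3*. Summed CPM of 7 stellate cell markers was 204 to 266 in WT con and 283 to 334 in WT EtOH, with *Dcn* and *Lrat* called higher, and that of 5 erythroid markers was 457 to 891 and 207 to 437, with *Alas2* called lower. Cholangiocyte markers summed to 70.3 to 183 and 63.6 to 70, with *Tff3* called lower. *S100a9* of the leukocyte list was called higher and *Apoa1* of the hepatocyte list lower, while the sums of those lists overlapped. The part of these cells in the results was not tested. In whole liver, fewer cells of a type and less RNA per cell cannot be told apart.

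On the control diet, livers of *Ahr* HKO held less mRNA of 6 of the 10 transporters than WT livers, and none was called higher. The 6 were 3 of 4 uptake genes (*Slc10a1*, *Slco1b2*, *Slco1a1*) and 3 of 4 canalicular genes (*Abcg8*, *Abcg5*, *Abcc2*). Among all tested genes 14.4% were called lower and 15.3% higher. *Abcb11* had a log2 FC of -0.40 ± 0.15 (adjusted *P* = 0.0843) and *Slco1a4* -0.53 ± 0.38 (adjusted *P* = 0.326), whereas *Abcc3* had 0.28 ± 0.21 (adjusted *P* = 0.359) and *Abcc4* 0.61 ± 0.22 (adjusted *P* = 0.0738). For 8 members the groups did not overlap, against 47.3% of all genes. The summed CPM of cholangiocyte markers was 70.3 to 183 in WT con and 58.4 to 506 in *Ahr* HKO con, with *Epcam* called higher. Leukocyte markers summed to 12.7 to 15.3 and 17.9 to 31.5, with *S100a8* and *S100a9* called higher, and erythroid markers to 457 to 891 and 142 to 289, with *Alas2* called lower. *Hgf* of the stellate cell list was called higher, and the sums of the Kupffer, stellate and endothelial lists overlapped. The part of these cells in the results was not tested.

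On the ethanol diet edgeR called none of the 10 between *Ahr* HKO and WT, where 0.684% of all genes were called higher and 0.378% lower. At an unadjusted *P* under 0.05 there were 6, 1 higher (*Slco1a1*) and 5 lower (*Slco1a4*, *Abcc4*, *Abcg5*, *Abcg8* and *Slco1b2*), where 9.6% of all genes were higher and 11.4% lower. With an FC above 2 as well, 3 remained, against 1.67% higher and 4.54% lower of all genes. DESeq2 called the same 6 after adjustment, with 5.09% of all genes higher and 5.68% lower. limma on log2(FPKM + 1) called 4 (0.556% of all genes higher and 3.01% lower), on log2(FPKM + 0.1) 1 (0.335% and 1.23%), and after quantile normalization 0 (0.477% and 0.328%). *Slco1a1* was 26.4-fold higher in *Ahr* HKO EtOH (log2 FC 4.72 ± 1.32, adjusted *P* = 0.119), and 8.04 with an adjusted *P* = 0.00388 without WT EtOH liver 3. *Abcc4* was 5.20-fold lower (-2.38 ± 0.57, adjusted *P* = 0.0908), *Slco1a4* 2.19-fold lower (-1.13 ± 0.21, adjusted *P* = 0.0595), and *Abcb11* had 0.00 ± 0.15 (adjusted *P* = 1.0). The groups did not overlap for 6 members, against 27.9% of all genes. Summed Kupffer cell markers were 306 to 798 CPM in WT EtOH and 193 to 239 CPM in *Ahr* HKO EtOH, with none of the 7 at 0 throughout. Leukocyte markers summed to 12.4 to 21.3 and 7.99 to 9.97, and stellate cell markers to 283 to 334 and 225 to 259. Of all marker lists *Alas2* alone was called (higher), and the part of these cells in the values was not tested.

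Ethanol raised 8 of the 10 in *Ahr* HKO liver, all 6 efflux genes with *Slc10a1* and *Slco1b2*, and lowered none. Of all tested genes 15% were called higher and 16.1% lower. *Slco1a4* had a log2 FC of 0.79 ± 0.30 (adjusted *P* = 0.0866) and passed without *Ahr* HKO con liver 3 (1.13, adjusted *P* = 0.0248). The groups did not overlap for 8 members, against 49.8% of all genes. The count was 5 without *Ahr* HKO con liver 1 or 2 or EtOH liver 3. All 7 Kupffer cell markers fell in the same comparison, from a summed CPM of 305 to 878 on the control diet to 193 to 239 on ethanol. So did 3 of 7 leukocyte markers (sums 17.9 to 31.5 and 7.99 to 9.97) and 3 of 7 sinusoidal endothelial markers (348 to 360 and 229 to 254). Erythroid sums were 142 to 289 and 367 to 493 with none of 5 called, and the part of these cells in the results was not tested.

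**Figure D2:**
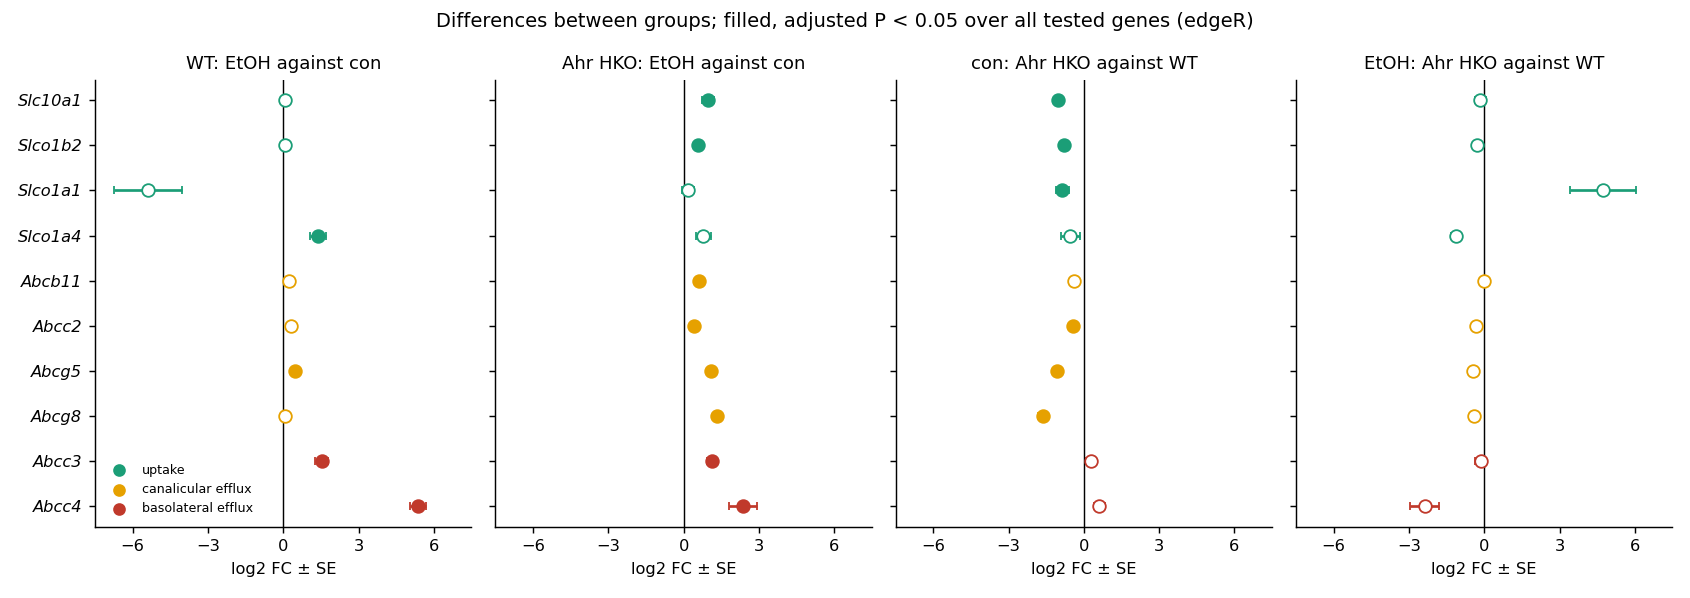
log2 FC with its SE (horizontal axis) of each transporter in the 4 comparisons of a pair of groups, colored by role; filled points passed an adjusted *P* of 0.05 in edgeR. There are 6 filled points below 0 for *Ahr* HKO against WT on the control diet, 8 above 0 for ethanol in *Ahr* HKO, 4 above 0 for ethanol in WT, and none for the genotypes on ethanol.

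Whether ethanol acted differently in the genotypes was tested with the interaction over all 12 livers, which called 6 of the 10 against 22.3% of all tested genes. The value is the ethanol log2 FC in *Ahr* HKO minus that in WT. It was positive for *Slco1a1* (5.58 ± 1.39, adjusted *P* = 0.0165), *Abcg8* (1.24 ± 0.23, adjusted *P* = 0.00419), *Slc10a1* (0.88 ± 0.29, adjusted *P* = 0.0497), *Abcg5* (0.63 ± 0.18, adjusted *P* = 0.0317) and *Slco1b2* (0.49 ± 0.15, adjusted *P* = 0.0409). *Abcc4* alone was negative among those called (-2.99 ± 0.68, adjusted *P* = 0.0108). *Abcc3* had -0.42 ± 0.34 (adjusted *P* = 0.404), *Slco1a4* -0.60 ± 0.48 (adjusted *P* = 0.397), *Abcb11* 0.40 ± 0.22 (adjusted *P* = 0.207) and *Abcc2* 0.11 ± 0.21 (adjusted *P* = 0.764). *Slco1a1*, *Abcg8* and *Abcc4* were called in all 12 fits leaving out a liver. *Abcg5* was called in 5, those without liver 3 of any group or without *Ahr* HKO EtOH liver 1, *Slc10a1* in 2, those without *Ahr* HKO con liver 3 or EtOH liver 2, and *Slco1b2* in 1, that without *Ahr* HKO con liver 3.

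**Figure D3:**
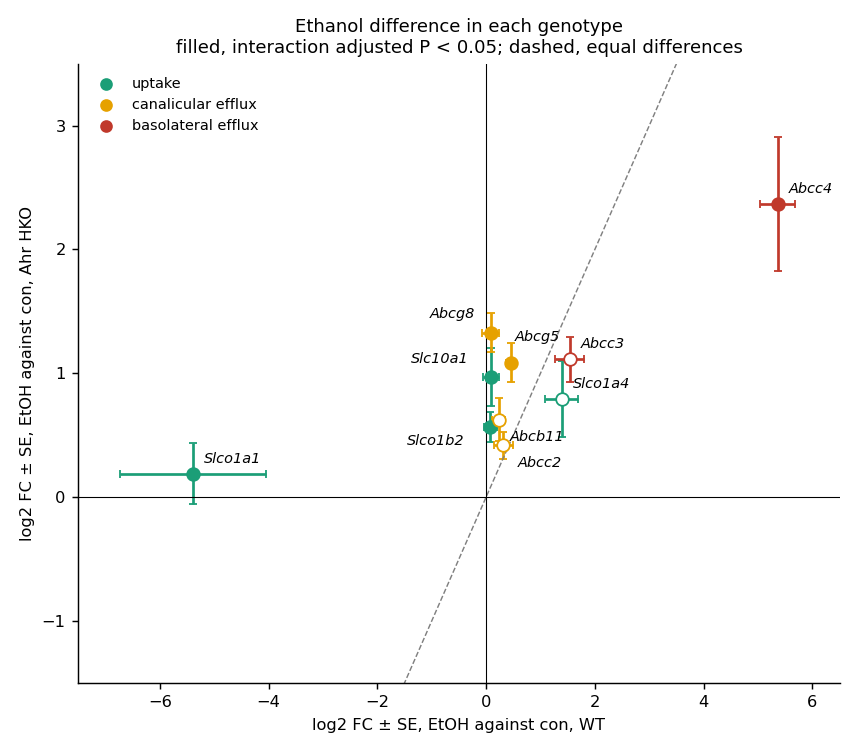
Ethanol log2 FC in WT (horizontal axis) against that in *Ahr* HKO (vertical axis), with SE, for the 10 transporters; filled points passed the interaction test and the dashed line marks equal differences. *Slco1a1* lies far left of the line (-5.39 in WT and 0.19 in *Ahr* HKO) and *Abcc4* right of it (5.36 and 2.37).

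Uptake was then set against efflux. For ethanol in WT the median log2 FC was 0.08 over the 4 uptake genes and 0.39 over the 6 efflux genes, a difference of -0.304. In *Ahr* HKO the medians were 0.68 and 1.10, a difference of -0.418. For *Ahr* HKO against WT they were -0.82 and -0.42 on the control diet (difference -0.400), and -0.22 and -0.37 on ethanol (difference 0.149). The median log2 CPM of uptake minus that of efflux genes was also taken in each liver. Its SD within the groups compared was 0.171, 0.383, 0.373 and 0.192, in the order of these differences. In size, the difference of -0.304 was thus above this SD, -0.418 and -0.400 were close to it, and 0.149 was below it. The SD describes the spread of single livers and is not the error of these differences. Canalicular and basolateral efflux genes had unlike medians. On the control diet those of *Ahr* HKO against WT were -0.757 over the 4 canalicular genes, close to uptake, and 0.446 over the 2 basolateral genes, neither of which was called. For ethanol they were 0.272 and 3.45 in WT and 0.856 and 1.74 in *Ahr* HKO, and for the genotypes on ethanol -0.373 and -1.26. The median of all tested genes was between -0.02 and 0.01 in these 4 comparisons. Members are not replicates, so no test was made over them.

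In single livers the summed uptake FPKM was 2.65, 3.03 and 3.14 times the summed efflux FPKM in WT con. The ratio was 1.84, 1.91 and 2.17 in WT EtOH, 1.91, 2.24 and 2.41 in *Ahr* HKO con, and 2.29, 2.07 and 2.07 in *Ahr* HKO EtOH. WT con lay above all 9 other livers, which overlapped. The sums reached these ratios at unlike levels. WT EtOH held 766 to 830 FPKM of uptake and 383 to 424 of efflux genes, and *Ahr* HKO con 330 to 433 of uptake and 173 to 188 of efflux genes. FPKM carry no TMM scaling, so sums in unlike groups are less comparable than CPM. Mean *Slc10a1* in WT EtOH and WT con, for example, was 463.8 and 391.4 FPKM but 734.9 and 692.4 CPM.

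**Figure D4:**
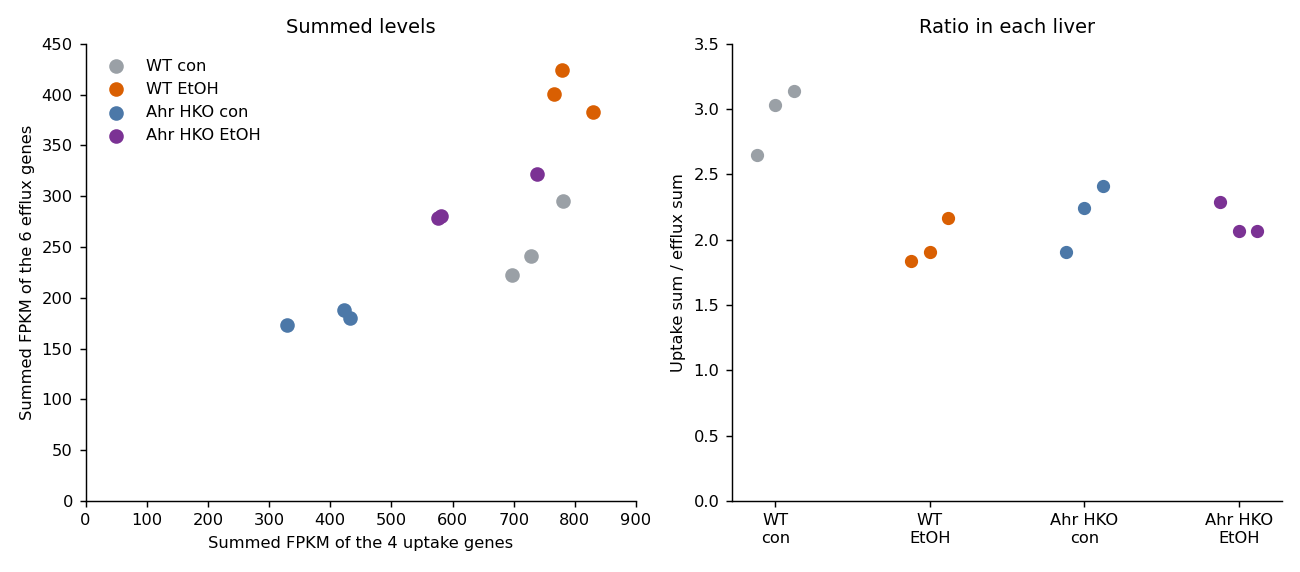
Left, summed FPKM of the 4 uptake genes (horizontal axis) and of the 6 efflux genes (vertical axis) in each of the 12 livers; right, the ratio of these sums by group. The 3 WT con livers have the highest ratios (2.65 to 3.14), and *Ahr* HKO con livers the lowest sums on both axes (330 to 433 and 173 to 188).

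Other transporters of the liver were followed in a list of 45, of which 40 were tested. Ethanol in WT raised 3 and lowered 2 (median log2 FC -0.07), where 4.24% and 4.48% of all genes were called. These shares are near the background. The largest was *Abcb1a* (2.68 ± 0.34, adjusted *P* = 0.00618), a drug efflux pump, followed by *Slc17a4* at 1.00 (adjusted *P* = 0.0022). *Ahr* HKO on the control diet had 5 higher and 13 lower (median -0.31), against 15.3% and 14.4% of all genes. Among them were the ileal and cholangiocyte bile acid carrier *Slc10a2* (3.20 ± 0.42, adjusted *P* = 0.00244) and the copper pump *Atp7b* (-1.05 ± 0.14, adjusted *P* = 0.0028). No gene of the list was called between genotypes on ethanol. Ethanol in *Ahr* HKO raised 15 and lowered 7 (median 0.37), against 15% and 16.1% of all genes, with *Slc10a2* at -2.30 (adjusted *P* = 0.00459) and the organic anion carrier *Slc22a7* at 1.36 (adjusted *P* = 0.0214). The interaction called 10 upward and 3 downward, *Abcb1a* among the latter (-1.68 ± 0.49, adjusted *P* = 0.0312), against 22.3% of all genes in either direction.

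Regulators of transporter genes were 23, all tested, and their counts are to be read against the same shares of all genes. In WT, ethanol raised 3, the xenobiotic receptors *Nr1i3* (CAR, 0.72 ± 0.10, adjusted *P* = 0.00877) and *Nr1i2* (PXR, 0.46 ± 0.08, adjusted *P* = 0.0168) and *Nfe2l2* (NRF2, 0.64 ± 0.13, adjusted *P* = 0.0268), and lowered none. *Ahr* HKO on the control diet had 5 higher and 4 lower, with *Hnf4a*, a hepatocyte nuclear receptor, at 0.97 (adjusted *P* = 0.00313), the FGF co-receptor *Klb* at -1.35 (adjusted *P* = 0.00452) and *Nr1i3* at -0.63 (adjusted *P* = 0.0439). Between genotypes on ethanol, *Bcl6* was higher in *Ahr* HKO (3.22 ± 0.21, adjusted *P* = 0.0035) and *Cux2* lower (-3.14 ± 0.53, adjusted *P* = 0.0497). Both encode repressors known for sex-dependent liver expression under growth hormone. *Cux2* levels were low, 2.13, 2.29 and 0.812 CPM in WT EtOH and 0.17, 0.139 and 0.293 in *Ahr* HKO EtOH (12, 9 and 13 counts). In *Ahr* HKO con they were 0, 0.222 and 5.91 CPM. *Bcl6* varied widely on the control diet, with 66.3, 43.3 and 11.1 CPM in WT and 74.1, 38.3 and 9.9 in *Ahr* HKO. Ethanol in *Ahr* HKO raised 5, with *Nr0b2* (SHP) at 1.34 (adjusted *P* = 0.02) and *Nr1i3* at 1.03 (adjusted *P* = 0.00963), and lowered 4, with *Nr1h4* (FXR) at -0.61 (adjusted *P* = 0.0443). The interaction called *Bcl6* and *Ghr* upward and *Ahr* and *Arnt* downward.

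Genes of the canalicular scaffold and of membrane traffic were 17. Ethanol in WT lowered *Rab11fip1* and raised none, against 4.48% and 4.24% of all genes. *Ahr* HKO on the control diet had 3 higher and 4 lower, where 15.3% and 14.4% of all genes were called, with the tight junction gene *Cgn* at -1.05 (adjusted *P* = 0.00625) and *Stx3*, a fusion protein of apical membranes, at 1.03 (adjusted *P* = 0.0114). Ethanol in *Ahr* HKO raised *Cgn* (1.10, adjusted *P* = 0.00878) and lowered 4, including *Stx3* (-1.26, adjusted *P* = 0.00712) and *Msn* (-1.18, adjusted *P* = 0.00438). Of all genes 15% were called higher and 16.1% lower there. No gene was called between genotypes on ethanol, where 0.684% of all genes were higher and 0.378% lower. The interaction called 2 upward and 3 downward, against 22.3% of all genes in either direction.

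Of 15 genes of bile acid synthesis and conjugation, ethanol in WT lowered 3 and raised none, against 4.48% and 4.24% of all genes. Among those lowered was the oxysterol hydroxylase *Cyp7b1* at -2.67 (adjusted *P* = 0.00075). *Ahr* HKO on the control diet had 2 higher and 5 lower, against 15.3% and 14.4% of all genes. The lower ones included *Cyp7a1*, the rate-limiting enzyme of bile acid synthesis (-4.33 ± 0.86, adjusted *P* = 0.01). Also lower was *Cyp8b1*, a sterol hydroxylase of cholic acid synthesis (-2.54 ± 0.30, adjusted *P* = 0.00179). Ethanol in *Ahr* HKO raised 4, with *Cyp8b1* at 1.77 (adjusted *P* = 0.00973), and lowered 1, against 15% and 16.1% of all genes. None was called between genotypes on ethanol, where 0.684% of all genes were higher and 0.378% lower. The interaction called 5 upward and none downward, against 22.3% of all genes in either direction.

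The 2 genes with the pattern most like each member over the 12 libraries were sought by Pearson *r* of log2 CPM among 11870 genes. *Cyp2b10* (*r* = 0.958) and *Cyp2c29* (0.956), both cytochrome P450 genes, stood nearest *Abcc3*, and *Cbr3* (0.977) and *Gm3776* (0.971) nearest *Abcc4*. *Mup21* (0.968) and *Pfkfb1* (0.962) were nearest *Slco1a1*, and *Akr1c14* (0.971) and *Sord* (0.970) nearest *Abcg5*. *Tmem135* (0.958) and *Aldh8a1* (0.958) were nearest *Slc10a1*, *Bbox1* (0.967) and *Iars2* (0.961) nearest *Slco1b2*, and *Acbd5* (0.968) and *Rnf14* (0.958) nearest *Abcg8*. For *Slco1a4* these were *Ebag9* (0.945) and *Ugp2* (0.943), for *Abcb11* *Adra1b* (0.959) and *Adal* (0.952), and for *Abcc2* *Pla2g12a* (0.936) and *Cd82* (0.936). The libraries fall into 4 groups, so these values describe patterns and carry no *P* value.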

How the data were processed

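Stranded mRNA libraries of 12 mouse livers were sequenced from both ends with reads of 100 bases, and groups were taken from the sample labels, which name no batch. The submitters' processing notes list Trimmomatic 0.38, HISAT2 2.1.0, Bowtie2 2.3.4.1, StringTie 1.3.4d and FastQC 0.11.7 with the build mm10, and the use of strand in counting is not given in the sources used here. Whole-number read counts were deposited by the authors for each gene, without normalization. The deposited FPKM values were scaled by the authors to gene length and library size, and served for levels between genes. The TPM values deposited by the authors summed to 924962 to 987569 per library and entered no result.

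Counts were tested with the quasi-likelihood method of edgeR 4.0.16 in R 4.3.3, after filterByExpr over the 4 groups and TMM scaling (factors 0.925 to 1.16). A comparison of 2 groups used only the 6 libraries concerned, and the interaction used all 12. Benjamini-Hochberg adjustment covered 14038 genes, and a gene was called at an adjusted *P* under 0.05. CPM are counts on TMM-scaled totals of tested genes, and SE were obtained from the log2 FC and its F statistic. The code was tested on simulated data. No pair of libraries had identical counts, and the chi-square statistic between replicates was 68 to 310 per gene, so the spread between livers sets the precision.

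Members and lists were chosen with earlier results of these data known. All members were named in every comparison. Of each other list, at most the 4 called genes with the largest absolute log2 FC were named, with the 2 nearest genes of each member (mean count of at least 50). Positions, promoter windows and sequences came from RefSeq on GRCm38.p6. Exon bases, and transcript stretches shared between genes, came from GENCODE. Alternatives were DESeq2 1.42.0, limma 3.58.1 on log2(FPKM + 1), on its quantile-normalized form and on log2(FPKM + 0.1), upper-quartile scaling, other filters, a single fit of all libraries, the replicate number as a block, other thresholds, and each liver left out in turn.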

Additional observations from a re-analysis of the deposited data

Results flagged for a closer look

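For 6 transporters the ethanol log2 FC differed between *Ahr* HKO and WT by the interaction test of edgeR with adjustment over all tested genes, of which 22.3% were called. The value in *Ahr* HKO minus that in WT was 5.58 for *Slco1a1*, 1.24 for *Abcg8*, 0.88 for *Slc10a1*, 0.63 for *Abcg5*, 0.49 for *Slco1b2* and -2.99 for *Abcc4*. With 1 liver left out at a time, *Slco1a1*, *Abcg8* and *Abcc4* were called in all 12 fits, *Abcg5* in 5, *Slc10a1* in 2 and *Slco1b2* in 1. The last 3 were also lost with the replicate block (adjusted *P* = 0.0542, 0.0715 and 0.0731). The cause was not tested.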

How the results depend on the processing

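The count of transporters called for *Ahr* HKO against WT on ethanol moved most, from 0 to 6 with DESeq2, 4 with limma on log2(FPKM + 1), 3 at an unadjusted *P* under 0.05 with an FC above 2, 2 with all 12 libraries in 1 fit, and 1 each with upper-quartile scaling, with limma on log2(FPKM + 0.1) and with the replicate block. For ethanol in *Ahr* HKO the count of 8 became 5 with the replicate block and 5 with limma on quantile-normalized values. The interaction count of 6 became 3 with the replicate block and 3 with limma on either FPKM scale without quantile normalization. With the replicate block the counts were 3 for ethanol in WT and 4 for the genotypes on the control diet. Same-numbered livers deviated together with correlations of -0.0884 to 0.178, so numbers were not taken as pairs. With 1 liver left out at a time the counts ranged from 1 to 4 for ethanol in WT, 4 to 6 for the genotypes on the control diet, 0 to 1 on ethanol, 5 to 8 for ethanol in *Ahr* HKO and 3 to 6 for the interaction. The uptake minus efflux medians ranged from -0.392 to -0.260, -0.442 to -0.348, 0.0385 to 0.256 and -0.588 to -0.323 in the 4 pairs, in that order. *Slco1a1*, lower in *Ahr* HKO on the control diet, was not called with all 12 libraries in 1 fit (adjusted *P* = 0.522). Nor was it called with the replicate block (0.0904) or in the limma fits (adjusted *P* = 0.0675, 0.0705 and 0.0767). *Abcc2*, also lower there, was lost without a filter on low counts (adjusted *P* = 0.0568) and with the replicate block (0.101). It was lost too with limma on log2(FPKM + 1) (0.0526) and on log2(FPKM + 0.1) (0.0801). In WT *Slco1a1* passed the test for ethanol with DESeq2 (adjusted *P* = 0.000597), with upper-quartile scaling (0.05 when rounded) and with at least 10 counts in every library (0.0441). It passed too with all 12 libraries (0.012), with all 3 limma fits and in 1 of 6 fits leaving out a liver. It did not pass without a filter on low counts or with the replicate block.

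Reversed signs were seen among values that passed no test. For ethanol in WT, *Slc10a1* had -0.01881 and *Slco1b2* -0.02406 after quantile normalization, and *Abcg8* ranged from -0.02212 without WT con liver 3 to 0.2622 without liver 1. *Abcb11* between genotypes on ethanol was -0.00302 with DESeq2, -0.04714 with upper-quartile scaling, -0.003495 without a filter, -0.01511 with at least 10 counts, -0.01388 with the replicate block, -0.2304, -0.1309 and -0.2323 in the limma fits, and -0.01256, -0.06964 and -0.07593 without WT EtOH liver 2 and *Ahr* HKO EtOH livers 1 and 3, against 0.1357 without its liver 2. *Abcc3* there was 0.1234 without WT EtOH liver 1 and -0.2976 without *Ahr* HKO EtOH liver 1. The interaction of *Abcc2* was -0.1362 and -0.1364 on the FPKM scales and -0.0411 without WT con liver 1. The causes were not tested. On the FPKM scale with 0.1 added, the median log2 FC of all genes was 0.16 for ethanol in WT, -0.21 for the genotypes on ethanol and -0.24 for the interaction, and with 1 added it was -0.13 and -0.14 for the last pair. For ethanol in WT log2(FPKM + 1) called 1631 genes higher and 406 lower, against 595 and 629 in edgeR. For the genotypes on ethanol it called 78 and 423, against 96 and 53, and for the interaction 810 and 2712, against 1576 and 1561.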
